A study of Mus musculus with 24 samples.

Results

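The difference between 2 T3 responses in mouse liver, that of GS mice minus that of wild-type (WT) mice, was taken apart gene by gene into what lay at the level after T3 and what lay at the level without hormone. In GS mice the thyroid hormone receptor TRβ carries 2 amino acid changes, E125G and G126S, which lie in the domain that binds DNA, and both genotypes were on a C57BL/6J background. The comparison used 12 of the 24 arrays in the series, 3 in each of 4 groups that the sample titles name: GS mice with T3, WT mice with T3, GS mice with PBS and WT mice with PBS. All these mice were males of 8 to 9 weeks, made hypothyroid over 3 weeks with an iodine-poor diet and with 0.02% methimazole, 0.5% perchlorate and 0.3% saccharin in their water. The animals without hormone were therefore hypothyroid too, and no group was euthyroid. T3 was injected into the abdomen at 20 µg per 100 g body weight, the control injection was PBS, and livers were taken 6 h later. The 6 arrays of TRβ knockout (KO) mice, treated in the same way, helped to estimate the spread of each gene. Of the 14069 genes tested, 401 differed in response (2.85%), and these are the genes described.

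Thyroid hormone receptors are nuclear receptors that sit on response elements in DNA, often as a pair with RXR, with and without hormone. Without T3 such a receptor typically recruits corepressors and holds a target gene down, and with T3 it exchanges them for coactivators and raises the gene. TRβ is the main thyroid hormone receptor of hepatocytes, where T3 is known for its effects on deiodination, lipid synthesis, bile acid synthesis and mitochondrial metabolism. A lower T3 response in a mutant can therefore mean a lower level after T3, a higher level without it, or both.

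For each gene the response difference, (GS with T3 minus GS with PBS) minus (WT with T3 minus WT with PBS), is the sum of 2 parts. The T3-level part is GS minus WT after T3, and the PBS-level part is GS minus WT without hormone with its sign turned. The T3 share is the T3-level part as a percentage of the difference, given with a 95% interval that is not adjusted over genes. A share over 100% means that the mean levels without hormone ran, by however little, in the direction that makes the response difference smaller. A share under 0% means the same of the mean levels after T3. Neither says that the genotypes were called different at that level. Which of the parts was larger was tested by a further contrast, the T3-level part minus the PBS-level part. Values are log2 intensities of single arrays, given in the order of the replicates, or log2 differences ± SE with n = 3 arrays a group. All p-values are from limma, with the Benjamini-Hochberg adjustment across 14069 genes, and a gene was called at an adjusted p under 0.05. No label says that arrays of a group share an animal, but the labels describe the animals no further, and the p-values measure the spread between these arrays.

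Array medians lay between 5.88 and 6.00, arrays of a group correlated at 0.996 to 0.997, and no 2 arrays held identical values. The array's values for Thrb were 6.81, 6.82 and 6.95 in GS livers after T3, against 6.85, 6.38 and 6.76 in WT livers after T3, and its response difference was 0.04 ± 0.18. Amino acid changes cannot be read from these values, so they do not check the genotype labels. The mean of 9 hepatocyte markers lay between 13.48 and 13.50 in GS livers after T3, against 13.52 to 13.57 in WT livers after T3. With PBS it lay between 13.55 and 13.57 in GS livers, against 13.54 to 13.60 in WT livers. After T3 1 of these markers was called lower in GS, while none was called in the response difference. In bulk liver, fewer cells of a type and less RNA per cell cannot be told apart. No tested marker of another liver or blood cell type was called in the response difference, as described further on.

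Among the 401 genes, 257 had a lower response in GS (1.83% of the genes tested) and 144 a higher one (1.02%). In WT the response was positive for all of the 257 and negative for all of the 144. The median response of the 257 genes was 0.06 in GS livers and 0.87 in WT livers, and that of the 144 genes was 0.04 in GS livers and -0.59 in WT livers. The response was smaller in size in GS than in WT for 255 of the 257 and for 134 of the 144. Over all genes tested the median response was 0.004 in GS livers and -0.03 in WT livers. The genes were called on the difference of these same responses. The signs and sizes are therefore partly set by that choice and are no separate test. The response difference was at least 2-fold for 83 of the 257 genes and for 27 of the 144. Over all genes tested the median difference was 0.03, the median difference after T3 0.03 and that without hormone -0.01.

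Most of these differences were spread over both levels. The median T3 share of the 401 genes was 61.0%, with quartiles of 41.3% and 76.5%, so that a median of 39.0% lay at the PBS level. It lay between 25 and 75% for 237 genes, at 75% or above for 113 and under 25% for 51. Both parts ran the way of the difference in 360 of the 401 genes. Calling genes on the sum of the parts favours parts that run the same way, so this count is no separate test. The larger part could be told for 122 genes, and it was the T3-level part in 82 of them and the PBS-level part in 40, while for the other 279 genes the parts were not told apart at 3 arrays a group. This contrast called 6.03% of all genes tested, and with equal groups it is orthogonal to the response difference. Without the GS PBS replicate 3 the larger part was at the T3 level for 53 genes, and without the WT T3 replicate 3 or the GS T3 replicate 3 it was at the PBS level for 26.

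**Figure D1:**
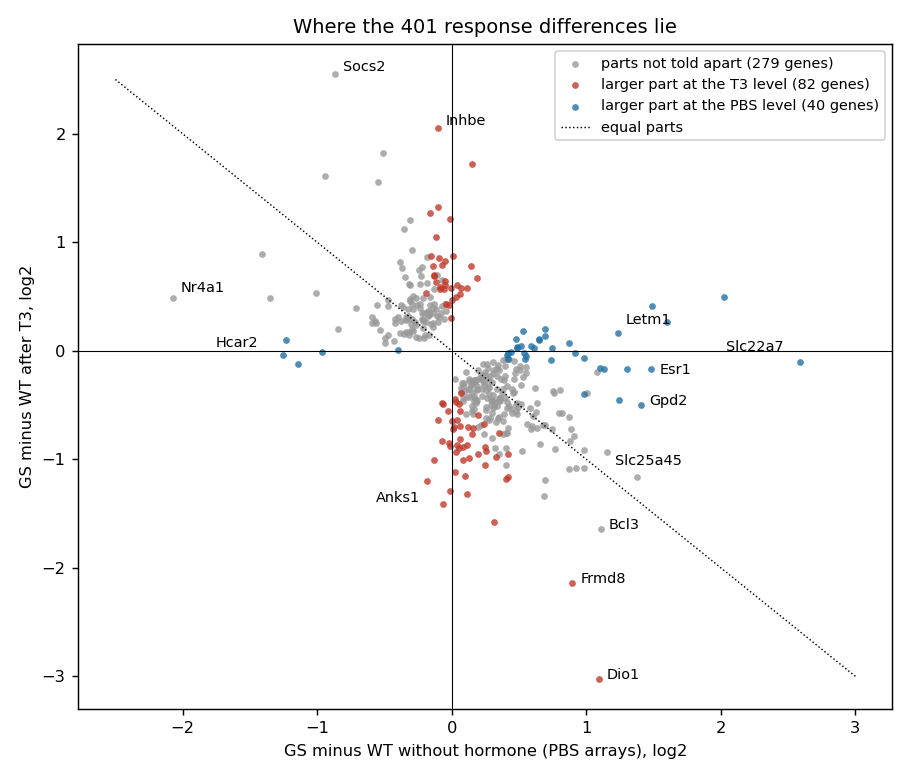
Each point is 1 of the 401 genes called in the response difference. The vertical axis is GS minus WT after T3 and the horizontal axis GS minus WT without hormone, both in log2. Red points have a larger T3-level part (82 genes), blue points a larger PBS-level part (40) and grey points parts not told apart (279). On the dotted line the parts are equal, and most genes lie to the lower right or the upper left of 0, where both parts run the same way.

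Each level was also tested by itself. Of the 257 genes with a lower response, 173 (67.3%) were called lower in GS after T3, against 2.48% of all genes, and 112 (43.6%) were called higher in GS without hormone, against 1.89% of all genes. Of the 144 genes with a higher response, 90 (62.5%) were called higher in GS after T3, against 3.21%, and 31 (21.5%) were called lower in GS without hormone, against 0.981%. A gene called in the difference has to differ at 1 level or at both, so these shares describe where the difference lay and are no separate test. In all, 801 genes (5.69%) were called between GS and WT after T3 and 404 genes (2.87%) without hormone. Those counts were the ones most open to single arrays. The count after T3 was 410, 466 and 470 without the WT T3 replicates 2 and 3 and the GS T3 replicate 3. The count without hormone lay between 219 and 269 whenever a GS or WT PBS array was left out. The number of genes with a higher response was 90 without the WT T3 replicate 2, 92 without the WT T3 replicate 3 and 90 without the GS PBS replicate 2.

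Both levels were called for 48 of the 257 genes and for 3 of the 144. The T3 level alone was called for 125 of the 257 and 87 of the 144, the PBS level alone for 64 and 28, and neither for 20 and 26. No gene was called at either level against the direction of its difference. The 3 GS arrays did not overlap the 3 WT arrays after T3 in 219 of the 257 genes and 119 of the 144, against 24.9% of all genes tested. Without hormone they did not overlap in 181 and 77, against 20.5% of all genes. The genes were called on these same arrays, which largely sets the counts of this paragraph, so they are no separate test.

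**Figure D2:**
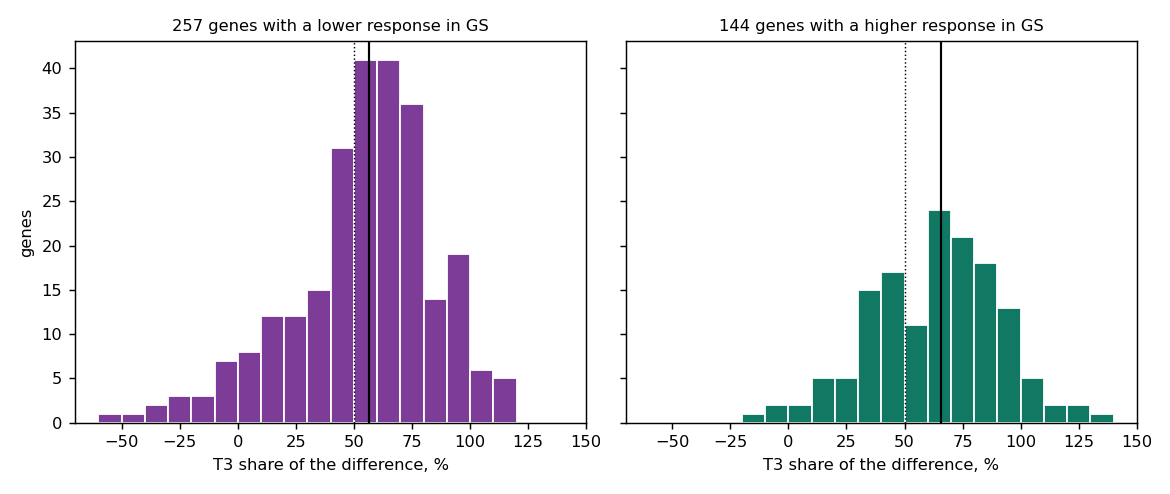
The histograms count genes (vertical axis) by T3 share in percent (horizontal axis), on the left for the 257 genes with a lower response in GS and on the right for the 144 with a higher response. The solid line is the median, 56.6% on the left and 65.6% on the right, and the dotted line marks 50%, where both parts are equal.

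The T3-level part was the larger one in 49 of the 257 genes with a lower response. Dio1, the deiodinase that activates and clears thyroid hormone, had the most negative response difference of all genes. After T3 it stood at 8.86, 7.81 and 8.19 in GS livers, against 11.33, 10.92 and 11.67 in WT livers. With PBS it stood at 6.13, 6.16 and 5.03 in GS livers, against 5.06, 4.49 and 4.50 in WT livers. The GS arrays lay far below the WT arrays after T3, while without hormone they lay higher with 1 GS array inside the WT range. The difference was -4.11 ± 0.44 (adjusted p = 3.79e-05), with -3.02 ± 0.31 at the T3 level (adjusted p = 2.32e-05) and 1.09 ± 0.31 without hormone, which was not called (adjusted p = 0.0757). Its T3 share was 73.5% (61.8 to 87.7%). The WT mean without hormone, 4.68, lay at the 25th percentile of the arrays (4.63 to 4.72), so the PBS-level part of Dio1 rests on values near background and gives no exact fold. No other gene among the 401 had a group mean under that percentile, which lies below the array medians (5.88 to 6.00). Genes above it can still be dim.

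Frmd8, which encodes a partner of the iRhom proteins in the shedding of membrane proteins, had 9.26, 9.32 and 9.10 in GS livers after T3, against 11.18, 11.49 and 11.42 in WT livers after T3. Its values with PBS were 9.05, 9.07 and 9.03 in GS livers and 7.94, 8.22 and 8.30 in WT livers. Neither pair of groups overlapped, and the 6 GS arrays lay between the WT PBS and the WT T3 arrays. The difference of -3.03 ± 0.24 (adjusted p = 2.98e-06) had a T3 share of 70.4% (61.8 to 80.2%), and both levels were called (-2.14 ± 0.17 after T3 and 0.90 ± 0.17 without hormone).

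In other genes the PBS arrays of the genotypes could not be told apart, and nearly all of the difference lay after T3. Anks1, which encodes an adaptor with ankyrin repeats, had 7.76, 7.73 and 7.74 in GS livers after T3, against 9.07, 9.07 and 8.98 in WT livers after T3. Its PBS values were 7.55, 7.88 and 7.84 in GS livers and 7.74, 7.75 and 7.82 in WT livers. Only the WT T3 arrays stood apart, and the GS arrays after T3 lay within the range of the GS PBS arrays. The response difference was -1.28 ± 0.10, the level without hormone differed by -0.01 ± 0.07 and the T3 share was 101% (90.1 to 115%). The shares of Naa35, a subunit of the N-terminal acetyltransferase NatC (101%), the lens crystallin Crybb3 (98.1%), the tyrosylprotein sulfotransferase Tpst2 (95.6%) and the mitochondrial coenzyme A carrier Slc25a42 (92.8%) were much alike, with differences from -0.86 to -1.14. Fgfrl1, a receptor of fibroblast growth factors without a kinase domain, had the highest share among the named genes with a lower response, 119% (93.8 to 166%). Abtb2 had a difference of -1.89 ± 0.24 with a share of 83.3% (69.0 to 103%).

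The PBS-level part was the larger one in 35 of the 257 genes. In the 9 named here GS minus WT lay between -0.50 and 0.16 after T3, where none was called, and GS livers stood higher without hormone. Slc22a7, an organic anion transporter of the hepatocyte membrane, had 9.63, 9.95 and 9.68 in GS livers after T3, against 9.91, 10.04 and 9.62 in WT livers after T3. With PBS the values were 10.32, 9.83 and 10.30 in GS livers, against 7.74, 7.41 and 7.52 in WT livers. The T3 groups overlapped, and all 3 GS PBS arrays lay above all WT PBS arrays by more than 2 on the log2 scale. The response difference was -2.70 ± 0.25 (adjusted p = 1.23e-05), with -0.10 ± 0.18 after T3 and 2.59 ± 0.18 without hormone (adjusted p = 7.5e-07), and its T3 share was 3.85% (-11.9 to 15.8%).

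Letm1, a cation exchanger of the inner mitochondrial membrane, had 9.70, 9.50 and 9.50 in GS livers after T3, against 9.40, 9.43 and 9.39 in WT livers after T3. Without hormone its values were 9.62, 9.49 and 9.53 in GS livers and 8.26, 8.22 and 8.47 in WT livers. The WT PBS arrays lay well below all others, and after T3 the GS arrays lay slightly higher than the WT arrays. The T3 share was -15.2% (-41.7 to 2.36%), since the T3 levels ran against the difference by 0.16 ± 0.09, which was not called (adjusted p = 0.345). The other 3 probe sets of Letm1 were dimmer and had smaller differences, from -0.02 to -0.49, none of them called.

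Pdp2, the phosphatase subunit that switches on pyruvate dehydrogenase, had 9.33, 9.16 and 9.21 in GS livers after T3, against 9.56, 9.36 and 9.26 in WT livers after T3. Its PBS values were 8.58, 8.67 and 8.59 in GS livers and 7.51, 7.48 and 7.54 in WT livers. The T3 groups overlapped and the PBS groups did not, and the response was 0.62 in GS and 1.88 in WT. The T3 share was 12.9% (0.338 to 23.0%). Gpd2, the mitochondrial glycerol-3-phosphate dehydrogenase and a textbook T3 target, had 10.49, 10.24 and 10.47 in GS livers after T3, against 10.81, 10.93 and 10.96 in WT livers after T3. With PBS it had 10.23, 9.67 and 9.87 in GS livers, against 8.37, 8.41 and 8.78 in WT livers. Both pairs of groups were apart, but the gap without hormone (1.41 ± 0.14, adjusted p = 4.3e-05) was larger than that after T3 (-0.50 ± 0.14, adjusted p = 0.0516), and the share was 26.2% (12.1 to 37.8%). Esr1, the oestrogen receptor alpha, had a share of 10.1% (-23.6 to 30.5%) and Nsmf one of 11.4% (-3.69 to 23.1%), with 1.48 ± 0.21 and 1.30 ± 0.10 without hormone. Dimmer probe sets of Nsmf had smaller differences, -0.74, which was called, and -0.37 and -0.16, which were not. For the sterol hydroxylase Cyp27a1, the haem oxygenase Hmox2 and the scaffold protein Lin7a the shares were -18.3%, -9.41% and -2.98%, and their intervals all held 0.

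**Figure D3:**
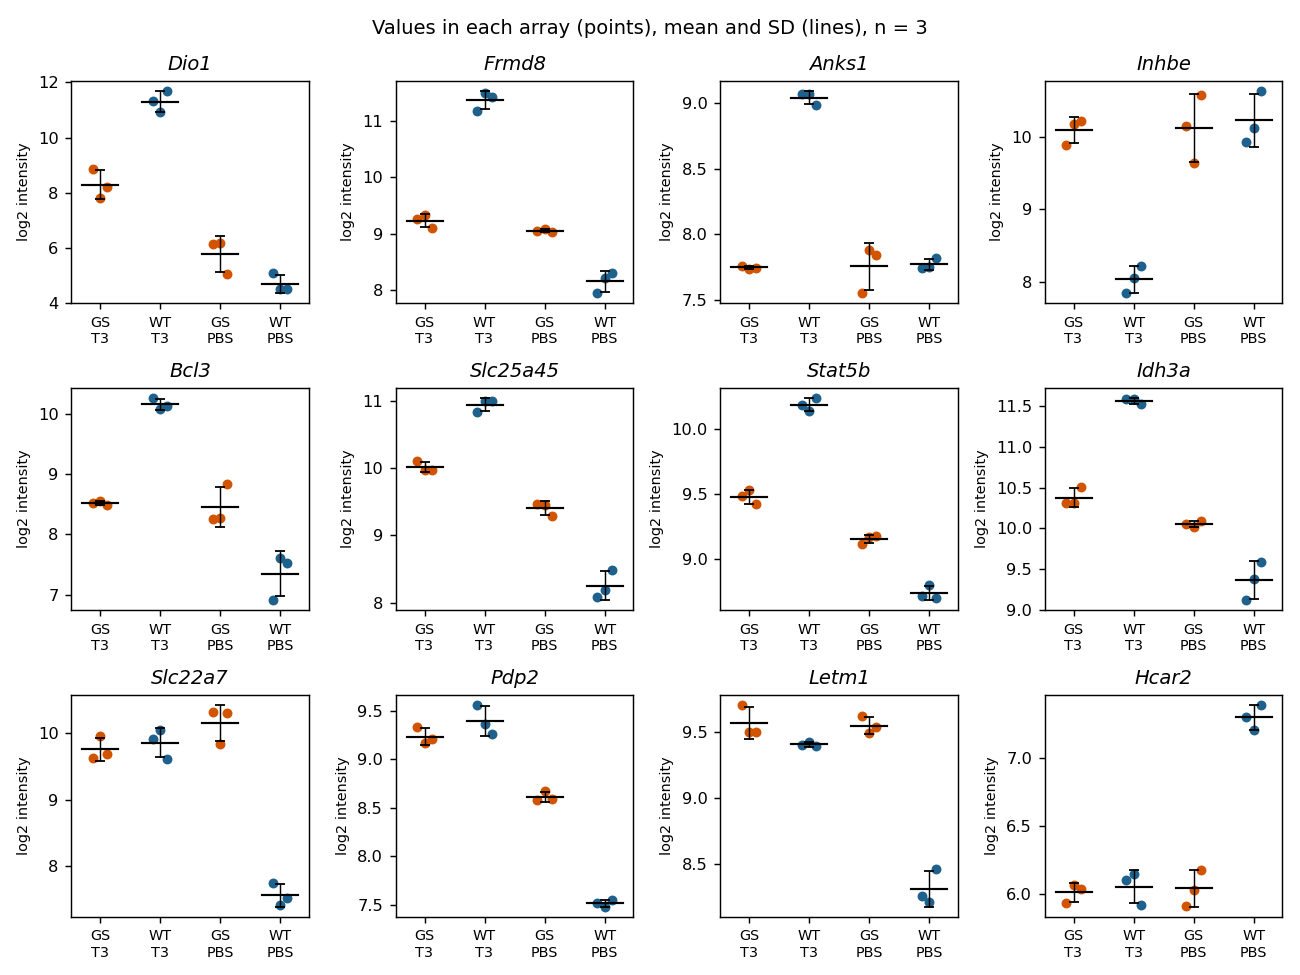
Points are single arrays in log2 intensity (vertical axis, not from 0) for 12 genes, with the mean and SD of 3 arrays as lines, in the order GS T3, WT T3, GS PBS and WT PBS. In Anks1 and Inhbe only the WT T3 arrays stood apart, and in Hcar2 only the WT PBS arrays. In Letm1 the WT PBS arrays lay well below all others, and the WT T3 arrays slightly below the GS arrays. In Bcl3, Frmd8, Slc25a45, Stat5b and Idh3a the GS arrays lay between the WT groups.

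For 173 of the 257 genes the parts were not told apart, and several of the largest differences were among them. Bcl3, a nuclear cofactor of NF-κB, had 8.52, 8.55 and 8.50 in GS livers after T3, against 10.27, 10.09 and 10.13 in WT livers after T3. Its PBS values were 8.25, 8.28 and 8.84 in GS livers and 6.91, 7.61 and 7.52 in WT livers. The GS arrays of both treatments lay close together, between the WT groups. The difference was -2.75 ± 0.25 (adjusted p = 1.23e-05) with a T3 share of 59.7% (49.9 to 70.3%). Idh3a, a subunit of the isocitrate dehydrogenase of the citric acid cycle, had 10.31, 10.31 and 10.51 in GS livers after T3, against 11.59, 11.59 and 11.53 in WT livers after T3. With PBS it had 10.06, 10.01 and 10.09 in GS livers, against 9.12, 9.38 and 9.59 in WT livers. No GS array overlapped a WT array of the same treatment, and the share was 63.3% (55.2 to 72.2%) of a difference of -1.88 ± 0.14.

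Slc25a45, a member of the mitochondrial carrier family whose gene lies beside Frmd8 on chromosome 19, had 10.11, 9.97 and 9.98 in GS livers after T3, against 10.84, 11.01 and 11.01 in WT livers after T3. Without hormone it had 9.47, 9.46 and 9.29 in GS livers, against 8.08, 8.19 and 8.49 in WT livers. All 4 groups were apart from each other, so that a response remained in GS (0.61, against 2.70 in WT). The difference, -2.09 ± 0.13, had the smallest p of all genes tested (adjusted p = 4.82e-07), and its T3 share was 44.7% (37.8 to 51.4%). The share thus lay on the other side of 50% from that of Frmd8, and the intervals of the neighbours did not overlap.

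Stat5a and Stat5b encode the transducers of growth hormone signals and lie next to each other on chromosome 11. Stat5a had 8.40, 8.15 and 8.14 in GS livers after T3, against 9.21, 9.05 and 9.18 in WT livers after T3, and with PBS 7.84, 7.59 and 7.52 in GS livers, against 7.13, 7.08 and 7.18 in WT livers. Stat5b had 9.49, 9.53 and 9.42 in GS livers after T3, against 10.19, 10.14 and 10.24 in WT livers after T3, and with PBS 9.12, 9.17 and 9.17 in GS livers, against 8.72, 8.80 and 8.70 in WT livers. In both genes the groups were fully apart at each level. Their differences were -1.44 ± 0.13 and -1.12 ± 0.08, and their T3 shares, 63.8% (54.3 to 74.3%) and 63.0% (55.1 to 71.7%), were nearly the same. Coq10a, a coenzyme Q binding protein of the mitochondrion, split evenly, with -0.60 ± 0.08 after T3, 0.61 ± 0.08 without hormone and a share of 49.9% (39.6 to 60.1%). Its response difference was not called with the mean of its probe sets (adjusted p = 0.0976).

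RefSeq promoter windows of these genes, from 250 bases before a transcript start to 50 bases after it in GRCm38.p6, were searched for the half-site AGGTCA that thyroid hormone receptors bind, on both strands. The windows shown were picked after the search because they hold the half-site, from genes described above with called differences at both levels. The windows of Frmd8 and Bcl3, and a further window each of Stat5b and Coq10a, do not hold it, while a further window of Stat5a does. Capitals mark the half-site, which reads TGACCT where it lies on the other strand. It begins 50 bases before the start in Slc25a45, 44 in Stat5a, 35 in Stat5b and 230 in Coq10a.
Stat5a, chr11:100860234-100860533, plus strand: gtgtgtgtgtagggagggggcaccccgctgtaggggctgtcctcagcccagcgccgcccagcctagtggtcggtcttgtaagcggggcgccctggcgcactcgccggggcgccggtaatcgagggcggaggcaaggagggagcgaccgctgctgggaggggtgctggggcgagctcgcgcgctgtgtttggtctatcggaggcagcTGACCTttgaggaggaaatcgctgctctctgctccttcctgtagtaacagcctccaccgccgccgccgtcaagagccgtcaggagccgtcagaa
Stat5b, chr11:100822521-100822820, minus strand: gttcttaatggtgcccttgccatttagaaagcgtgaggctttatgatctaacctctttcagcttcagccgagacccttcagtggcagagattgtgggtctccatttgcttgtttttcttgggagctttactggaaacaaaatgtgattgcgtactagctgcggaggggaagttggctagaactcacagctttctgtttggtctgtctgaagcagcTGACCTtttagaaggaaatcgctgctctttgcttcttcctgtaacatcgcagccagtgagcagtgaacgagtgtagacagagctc
Slc25a45, chr19:5877572-5877871, plus strand: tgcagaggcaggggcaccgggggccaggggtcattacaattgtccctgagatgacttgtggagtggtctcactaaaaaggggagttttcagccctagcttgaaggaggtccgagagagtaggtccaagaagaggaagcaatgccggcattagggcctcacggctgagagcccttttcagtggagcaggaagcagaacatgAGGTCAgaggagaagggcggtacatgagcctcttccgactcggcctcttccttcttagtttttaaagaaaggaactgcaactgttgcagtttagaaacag
Coq10a, chr10:128369988-128370287, minus strand: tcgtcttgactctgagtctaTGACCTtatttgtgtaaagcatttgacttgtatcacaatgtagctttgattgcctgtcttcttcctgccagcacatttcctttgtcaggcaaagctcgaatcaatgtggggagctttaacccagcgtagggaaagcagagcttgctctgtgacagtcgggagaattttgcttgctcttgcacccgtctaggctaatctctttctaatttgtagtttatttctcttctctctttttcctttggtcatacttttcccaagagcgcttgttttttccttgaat
The longest run that the Stat5a and Stat5b windows share, 16 bases, is aggaaatcgctgctct, and in both it follows the half-site closely. Of the 216 genes with a lower response that had a window, 42 (19.4%) held the half-site in at least 1 of their windows, against 15.9% of the 11305 tested genes with a window. The share was 15.6% of 122 genes with a higher response, 9.30% of 43 genes with a lower response and a larger T3-level part and 14.8% of 27 with a larger PBS-level part. The direct repeat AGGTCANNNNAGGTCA was in no window of the called genes and in that of 1 tested gene. A match describes the letters in the window only, and the 300 bases leave out most of each gene's regulatory DNA.

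The other members with the largest negative differences also split between the levels. Bmf, a proapoptotic BH3 protein, had a difference of -2.54 ± 0.33 with a share of 45.9% (31.0 to 60.1%), and Gadd45a, a growth arrest gene, one of -2.06 ± 0.38 with 52.3% (31.2 to 74.1%). Trim7, an E3 ubiquitin ligase, Ankrd33b and Rrm2, a subunit of ribonucleotide reductase, had differences of -2.00, -1.96 and -1.90 and shares of 54.0%, 55.5% and 48.2%. None of these intervals reached 25 or 75%. A dimmer probe set of Bmf, also called, gave a smaller difference of -0.81, with -0.56 after T3 and 0.25 without hormone. The dimmest gave -0.19 and was not called. Dimmer probe sets of Ankrd33b gave -1.29 and -0.31, and neither was called.

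**Figure D4:**
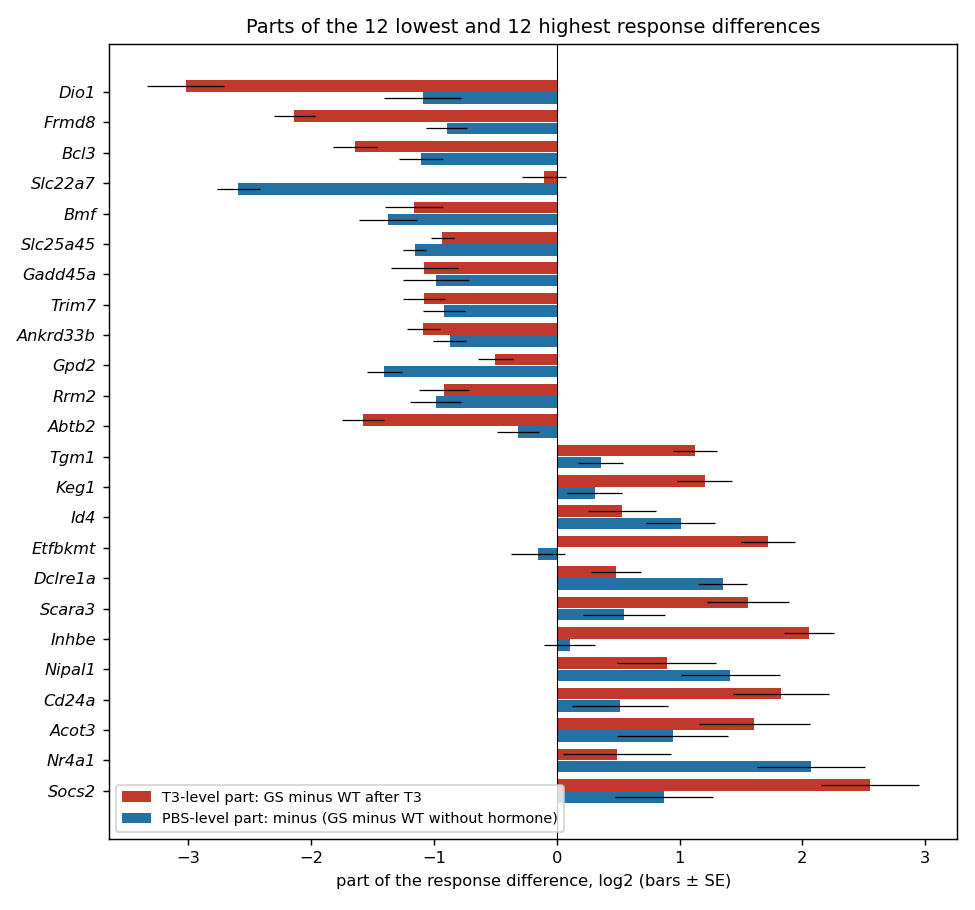
Bars give the T3-level part (red) and the PBS-level part (blue) of the response difference in log2 (horizontal axis), with the SE as lines, for the 12 named genes with the lowest and the 12 with the highest difference. Slc22a7 and Gpd2 carried most of it at the PBS level, and Dio1, Frmd8, Abtb2, Inhbe and Etfbkmt, for example, at the T3 level. Nr4a1 and Dclre1a also had more of it at the PBS level, and Socs2 at the T3 level, but their parts were not told apart.

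Of the 144 genes with a higher response in GS, which were all lower after T3 in WT livers, 33 had the larger part at the T3 level and 5 at the PBS level, and for 106 the parts were not told apart. Inhbe, the subunit of activin E made by hepatocytes, had 9.88, 10.18 and 10.21 in GS livers after T3, against 7.84, 8.05 and 8.21 in WT livers after T3. With PBS it had 10.14, 9.64 and 10.58 in GS livers, against 9.92, 10.12 and 10.62 in WT livers. The WT T3 arrays stood alone, low. The difference was 2.16 ± 0.29 (adjusted p = 3.60e-04) and its T3 share 95.2% (78.6 to 120%). Etfbkmt, the methyltransferase of the electron transfer flavoprotein, had a share of 110% (84.3 to 161%) of a difference of 1.57 ± 0.31. The sialyltransferase St3gal4 (101%), the folate carrier Slc19a1 (101%), the Hippo pathway protein Wwc1 (90.3%), the glycine acyltransferase Glyat (84.6%) and the hyaluronidase Hyal2 (73.6%) also had a larger T3-level part, with differences from 0.46 to 0.95. Slc19a1 was not called with the mean of its probe sets.

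Socs2, the growth-hormone-induced inhibitor of that hormone's signal, had the largest positive difference. After T3 it stood at 8.55, 9.24 and 9.16 in GS livers, against 6.96, 6.30 and 6.05 in WT livers. With PBS it stood at 8.91, 8.94 and 9.99 in GS livers, against 10.01, 10.01 and 10.41 in WT livers. The groups were apart at both levels, narrowly so without hormone. The difference of 3.42 ± 0.56 (adjusted p = 0.00224) had a T3 share of 74.6% (56.9 to 99.1%), and the level without hormone was not called (-0.87 ± 0.40, adjusted p = 0.313). The transglutaminase Tgm1 (1.48 ± 0.25) and Keg1 (1.51 ± 0.32), like Socs2, had most of the difference after T3, with shares of 75.9% (57.6 to 102%) and 79.6% (57.2 to 117%), while the DNA repair nuclease Dclre1a (1.83 ± 0.29) had a share of 26.4% (3.87 to 43.1%). A further probe set of Socs2 gave 3.76 and was called, and the dimmest gave 0.40 and was not.

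The 5 genes with a larger PBS-level part included Hcar2, the receptor of niacin and β-hydroxybutyrate. It had 5.93, 6.07 and 6.04 in GS livers after T3, against 6.10, 6.15 and 5.92 in WT livers after T3, and with PBS 5.91, 6.03 and 6.18 in GS livers, against 7.30, 7.20 and 7.39 in WT livers. Only the WT PBS arrays stood apart, high, while the other groups lay near the array medians (5.88 to 6.00). At such dim values a difference after T3 may be compressed, which was not tested. The T3 share was -3.44% (-28.0 to 13.0%) of a difference of 1.21 ± 0.15. The cytokine receptor Il17rb (-1.31%), Elapor1 (-11.8%) and the oxysterol binding protein relative Osbpl3 (7.24%) also had shares under 25%, with differences without hormone of -0.96, -1.14 and -1.23. Elapor1 was dim as well, with a mean of 5.52 over the 18 arrays fitted. The call of Elapor1 was lost in 9 of the 12 fits without 1 array, and the iron regulatory gene Ireb2, named after its values were seen, was the last of the 5. Nr4a1, an immediate early nuclear receptor, had 7.27, 8.54 and 7.17 in GS livers after T3, against 7.18, 7.12 and 7.21 in WT livers after T3, and with PBS 7.13, 7.41 and 7.47 in GS livers, against 9.08, 10.56 and 8.59 in WT livers. The T3 groups overlapped, the PBS groups did not, and the share was 19.1% (-28.7 to 44.9%). Its difference of 2.56 ± 0.62 (adjusted p = 0.0328) lost its call in 8 of the 12 fits with 1 array removed. Those of Acot3 (2.55), Nipal1 (2.31), Cd24a (2.34) and Id4 (1.54) did so in 11, 8, 9 and 11 of them, and that of Scara3 (2.10) in 5. Acot3 belongs to a cluster of near-identical acyl-CoA thioesterase genes, and probes may read more than 1 of them.

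Lists of related genes are described by their counts and medians, beside 1.83% lower, 1.02% higher and a median difference of 0.03 over all genes tested. The lists and their members were chosen with earlier results of these data known. A count above those shares is therefore partly set by the choice and is no separate test. On the list of hepatic T3 targets, 6 of 20 tested genes had a lower response and none a higher one (9 had an unadjusted p under 0.05 in limma), and the median difference was -0.46. The list's median was -0.34 after T3 and 0.40 without hormone. By part, Dio1 was larger at the T3 level and Gpd2 at the PBS level, while Bcl3, Idh3a, Mlxipl and Thrsp were not told apart. Thrsp, the lipogenic Spot14 protein, had a difference of -1.51 ± 0.36 (adjusted p = 0.0303) that lost its call in 11 of the 12 fits without 1 array. Dimmer probe sets of Thrsp gave -2.23 and -1.895, both called in a limma fit of all probe sets (adjusted p = 0.0298 and 0.0034). Cyp7a1, which catalyses the first step from cholesterol to bile acids, missed the call with -2.22 ± 0.59 (adjusted p = 0.0553), with a called -1.52 ± 0.42 after T3 (adjusted p = 0.042). Fasn (-1.60 ± 0.57, adjusted p = 0.178), Me1 (-0.66 ± 0.34, adjusted p = 0.409) and the transcription factor Klf9 (-0.04 ± 0.16, adjusted p = 0.943) were not called.

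Of 17 tested genes of the mitochondrial list, which holds the glycerol phosphate shuttle, the citric acid cycle and coenzyme Q, 8 had a lower response and none a higher one (9 with an unadjusted p under 0.05), and the median difference was -0.47. Those already named are Gpd2, Idh3a, Pdp2 and Coq10a. The remaining 4, picked here after their values were seen, were Coq10b (-0.96), the coactivator Ppargc1b (-0.82), citrate synthase Cs (-0.68) and the pyruvate dehydrogenase kinase Pdk2 (-0.55). After T3 7 of the list were called lower in GS and without hormone 4 were called higher. Pdp2 and Pdk2, which act on pyruvate dehydrogenase in opposite directions, differed in where their differences lay: Pdk2 differed by -0.49 after T3 and 0.05 without hormone, Pdp2 by -0.16 and 1.10.

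For fatty acid synthesis, 5 of 20 genes had a lower response and none a higher one (7 with an unadjusted p under 0.05), with a median of -0.42. The transcription factors Srebf1 (-0.96 ± 0.19, share 96.4%) and Mlxipl (-0.90 ± 0.17, share 68.7%), the acyltransferases Agpat2 (-1.18 ± 0.16, share 78.7%) and Dgat2 (-0.46 ± 0.10, share 68.2%) and Thrsp (share 56.6%) were the 5. The list's median was -0.34 after T3, where 4 of its genes were called lower in GS, and 0.23 without hormone.

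The growth hormone list had 2 lower (Stat5a, Stat5b) and 1 higher (Socs2) of 16 genes, with a median of 0.08. Igfals, a subunit of the complex that carries IGF in blood, was called higher in GS after T3 (0.87 ± 0.12, adjusted p = 2.87e-04) but missed the call in the response difference (0.60 ± 0.16, adjusted p = 0.0622), since it ran the same way without hormone (0.27 ± 0.12, adjusted p = 0.265). Among 15 hepatocyte transcription factors and xenosensors, Esr1 and Cebpb (-1.30 ± 0.19, share 68.8%) had a lower response, and the pregnane X receptor Nr1i2 (0.99 ± 0.19, share 75.1%), Creb3l3 (0.47 ± 0.09, share 91.5%) and Nr1i3 a higher one. Of 17 FOXO and insulin genes, Bmf, Gadd45a and Cited2 (-0.62 ± 0.14) had a lower response and Irs1, the insulin receptor substrate, a higher one (0.87 ± 0.20, share 94.6%). Of the 12 fits without 1 array, the call of Cited2 was lost in 8 and that of Irs1 in 4, and Cited2 was also not called with only the 12 WT and GS arrays.

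In bile acid and sterol disposal 1 of 15 had a lower and 1 a higher response. These were Cyp27a1 and the bile acid receptor Nr1h4 (0.57 ± 0.13, share 107%), whose call was lost in 5 of the 12 fits without 1 array, so that the first differed without hormone and the second after T3. The 14 immediate early genes held 2 with a higher response, Nr4a1 and Atf3, the 15 acute phase genes 1, Cxcl1, the 9 retinoid genes 1 with a lower response, Stra6l, and the 19 genes of fatty acid oxidation 1 with a higher response, Acot3. The calls of Atf3, Cxcl1 and Stra6l were lost in 9, 10 and 2 of the 12 fits without 1 array, with adjusted p-values of up to 0.198, 0.762 and 0.056 over the alternatives. No gene was called by limma among 15 of cholesterol synthesis, 17 of the clock, 11 of gluconeogenesis and glycogen, 13 of drug and steroid metabolism, 6 metallothionein and zinc transport genes, 13 of ER stress and 13 receptors and coregulators, where 2, 6, 3, 3, 0, 2 and 5 had an unadjusted p under 0.05. The largest uncalled differences there were those of Cyp17a1 (-2.35 ± 0.83), Ppp1r3c (1.52 ± 0.40, adjusted p = 0.0549) and Mt2 (1.41 ± 0.83). All these counts rest on the brightest probe set of each gene. In a limma fit of all probe sets, dimmer ones were called for Sc5d (-1.34, adjusted p = 0.0268) and Ppp1r3c (1.62, adjusted p = 0.0398). So were dimmer ones of the drug metabolism gene Fmo2 (1.54 and 1.27, adjusted p = 0.00836 and 0.00802).

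**Figure D5:**
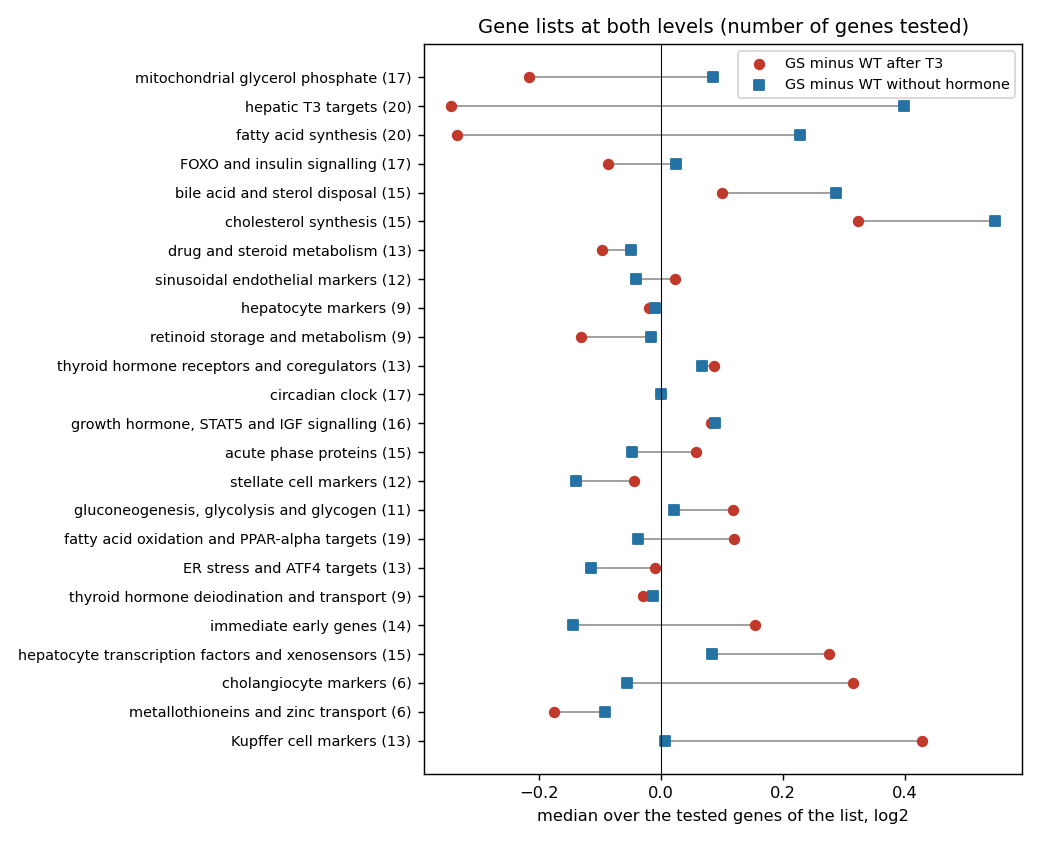
Points give the median over the tested genes of each list (number in brackets) of GS minus WT after T3 (red circles) and without hormone (blue squares), in log2 on the horizontal axis. T3 targets, fatty acid synthesis and mitochondrial genes lie below 0 after T3 and above 0 without hormone, and cholesterol synthesis genes lie above 0 at both.

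Markers of other cell types were compared in the same way. The mean of 13 Kupffer cell markers lay between 8.78 and 9.62 in GS livers after T3, against 8.60 to 8.98 in WT livers after T3, and between 8.75 and 8.89 in GS livers with PBS, against 8.77 to 8.85 in WT livers with PBS. After T3 3 of the 13 were called higher in GS (C1qa 0.43, Clec4f 0.61 and Cd5l 0.61), and the list's median was 0.43 after T3 and 0.01 without hormone. Its median response difference was 0.44, with none of the 13 called and 1 at an unadjusted p under 0.05. The highest value belonged to the GS T3 replicate 3, and without that array 317 genes were called in the response difference, 213 lower and 104 higher. The mean of 7 cholangiocyte markers lay between 6.03 and 6.23 in GS livers after T3, against 5.87 to 5.92 in WT livers after T3, and between 5.95 and 6.13 in GS livers with PBS, against 6.07 to 6.28 in WT livers with PBS. None of the 6 of them that were tested was called. Sinusoidal endothelial (12 tested), stellate (12), lymphocyte (7), neutrophil (6) and erythroid (1) markers had no call in the response difference, with medians from -0.16 to 0.10. With PBS the endothelial mean lay between 9.175 and 9.261 in GS livers, against 9.266 to 9.307 in WT livers. The stellate mean with PBS lay between 8.57 and 8.67 in GS livers, against 8.71 to 8.96 in WT livers, and 1 stellate marker was called lower in GS. The erythroid mean with PBS was 6.66 to 6.78 in GS livers, against 6.80 to 6.88 in WT livers. After T3 the genotypes overlapped in all of these means. The part of these cells in the results was not tested.

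The same split can be set beside that of the knockout, which shares the WT arrays. For Dio1, GS minus WT was -3.02 after T3 and 1.09 without hormone, and KO minus WT was -3.56 and 1.24. For Slc22a7 the values were -0.10 and 2.59 in GS and 0.34 and 2.44 in KO, for Anks1 -1.30 and -0.01 in GS and -1.23 and 0.04 in KO, and for Inhbe 2.05 and -0.10 in GS and 1.88 and 0.07 in KO. Etfbkmt had 0.15 without hormone in GS and 0.66 in KO, and Cd24a had 1.82 after T3 in GS and 0.45 in KO. The responses of GS and KO themselves, compared with no WT array, differed for 0 of 14069 genes in limma, where 898 had an unadjusted p under 0.05 and the smallest adjusted p was 0.569. The 95% interval of that difference reached 0.27 to either side in the median gene, before any adjustment over genes, and differences between the mutants of that size and above could go uncalled here.

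The genes at the threshold were Rmnd5b (0.33, adjusted p = 0.0477), Srsf4 (-0.43, adjusted p = 0.0479) and Nle1 (0.47, adjusted p = 0.0494) just inside it. Just outside lay Chd3 (-0.57, adjusted p = 0.0501), A330094K24Rik (-0.48, adjusted p = 0.0514) and Abhd6 (-0.75, adjusted p = 0.0515), whose differences were no smaller in size.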

How the data were processed

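Liver RNA (200 ng) was hybridised to Affymetrix mouse arrays of 45101 probe sets. Per the labels and the submitters' processing notes, the authors used RMA, so that each deposited value is a log2 intensity. Its version: not given in the sources used here. Background correction and quantile normalisation within RMA compress differences of dim probe sets, and no detection call came with the values.

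Groups came from the sample titles, whose numbers differ, so each array was taken as 1 animal. The probe annotation gave 34958 probe sets 1 symbol. Those with several symbols (932) or no symbol (9211) were left out, and each of 18194 genes was read by its brightest probe set. The 14069 genes that reached the 40th percentile of the array in at least 3 arrays were tested. In R 4.3.3 with limma 3.58.1, 6 group means were fitted to the 18 arrays of WT, KO and GS mice (12 residual and 4.09 prior degrees of freedom, no covariate). The 6 arrays of Y147F mice, whose columns lost most decimal marks, entered only an alternative with restored values, where 1670 cells (0.617%) stayed missing. Two-sided tests were adjusted by Benjamini and Hochberg, with 95% intervals of the T3 share by Fieller's method. The steps were tested on simulated data.

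Named genes were the 12 lowest and 12 highest called differences, the 3 smallest p-values in each of 5 T3 share classes (bounds at 0, 25, 75 and 100%) and direction, up to 4 per gene list, all measured T3 targets, Thrb and Thra. The 27 lists hold 381 entries, 340 of them tested. The members and lists were chosen with earlier results of these data known. The alternatives were other sets of arrays, quantile normalisation, other filters, the mean of probe sets, robust moderation, array weights, a covariate for the title number, a 2-fold threshold, other class bounds and leaving out each array.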

Additional observations from a re-analysis of the deposited data

Results flagged for a closer look

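The response to T3 differed between GS and WT livers for 401 genes by the test of the difference itself, and these are the genes described above. The same test was run on probe sets that the report leaves out because they have no single gene symbol. Of 4026 such probe sets, 33 were called in the response difference (0.82%), 23 lower and 10 higher in GS, against 2.19% of all probe sets in that fit.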

How the results depend on the processing

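None of the 401 differences changed its sign in any of the 9 other fits or the 18 fits without 1 array that tested it. The 401 genes with a different response numbered 379 to 489 under the 9 other fits that kept all arrays of both genotypes. Of the 401, 334 stayed called with only the 12 WT and GS arrays, 347 with all 24 arrays, 328 with the mean of probe sets, 395 with array weights and 373 with a covariate for the title number. With a 2-fold threshold 110 genes were left, 83 lower and 27 higher, 67 were called after T3 and 49 without hormone, 27 and 16 had the larger part at the T3 and at the PBS level, and the median T3 share was 55.8%. Leaving out 1 of the 12 GS and WT arrays gave 299 to 376 genes in all, 205 to 245 lower and 90 to 132 higher, 410 to 864 after T3 and 219 to 421 without hormone. The larger part was then at the T3 level for 53 to 73 genes and at the PBS level for 26 to 38, the median T3 share was 58.1 to 63.8%, and without 1 GS or KO array GS and KO differed in 0 to 2 genes. Without 1 of the 6 KO arrays, which bear only on the spread here, 401 to 417 genes were called, 375 to 384 of them among the 401. Class bounds of 33 and 67% put 170 genes between them, 156 above and 75 below. Of the 68 named genes called, 51 kept the call in each of the 9 other fits that tested them and without each of the 12 GS and WT arrays, 15 lost it without at least 1 array and 13 under at least 1 other fit, while 12 of the 87 uncalled ones gained it somewhere. Where a call was lost, the cause was not tested. GS against KO has no value in the fit of the 12 WT and GS arrays, which holds no KO array. The 3 arrays a group leave most T3 shares with wide intervals, and that of Dio1 also rests on a dim probe set in WT livers with PBS. No paired analysis was possible because the title numbers are shared by no 2 arrays.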

Other observations

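Some genes differed between the genotypes at both levels in the same direction, so that the response difference shows little of it. They were picked here after their values were seen, from the gene lists. The organic anion transporter Slco1a1 was higher in GS by 1.39 after T3 and by 1.21 without hormone, both called (adjusted p = 0.00125 and 0.00564, limma), while its response difference was 0.18. The phospholipid exporter Abcb4 was higher by 0.51 and 0.56, the bile salt export pump Abcb11 by 0.37 and 0.51 and the receptor partner Rxra by 0.35 and 0.29, all called at both levels, with response differences of -0.05, -0.14 and 0.07. The 15 tested genes of cholesterol synthesis had medians of 0.32 after T3 and 0.55 without hormone, with 1 gene called at each level, Cyp51 after T3 (1.11) and Sc5d without hormone (0.62).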
